A study of Mus musculus with 6 samples.

Results

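The spliceosome removes introns from nuclear transcripts, and its protein genes were followed in mouse blastocysts cultured with extracellular vesicles from human Fallopian tubes. The members are the protein-coding genes of the deposited expression table whose symbol begins with Srsf, Sf3a, Sf3b, Snrp, Lsm or Prpf, the last group and the Srsf and Lsm genes with a number after the stem. This rule took 58 of the 55774 rows, and it used no expression value. They comprise 11 SR proteins, 9 proteins of SF3A and SF3B, 8 Sm core proteins, 4 proteins specific to the U1 or U2 particle, 13 LSm proteins and 13 PRPF proteins. Levels are in FPKM, which counts fragments relative to transcript length and library size. Genes listed with at least 1 FPKM in 3 or more libraries were tested, which kept 54 of the 58 members and 11924 genes in all. Of the other rows with such a symbol, 3 are not protein-coding, and Snrpert is described below because it is a copy of Snrpe.

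Embryos at the 2-cell stage from ICR female mice of 6 to 8 weeks were grown in CZB medium for 75 hours with vesicles from women with endometriosis (oEV-EMT) or with vesicles from women without it (oEV-ctrl). The embryos carried no engineered allele, the vesicles were human, and blastocysts grown without vesicles were not sequenced. RNA of 10 blastocysts was pooled for each library, with 3 libraries per group. The labels and the study's methods name different gynaecological conditions for the control donors, and nothing states that the libraries of a group came from separate cultures, so the p-values measure the spread between these libraries.

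In splicing, the U1 particle binds the start of the intron and the U2 particle its branch point, and the U4/U6.U5 tri-snRNP then joins to form the catalytic centre. Sm proteins form a ring on U1, U2, U4 and U5 RNA, whereas a ring of LSm proteins sits on U6 RNA. SR proteins bind exons and recruit these particles. Preimplantation embryos depend on splicing of newly made transcripts once the embryonic genome is active, and mouse embryos that lack a core factor such as Sf3b1 or Prpf19 die early.

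The promoters of Snrpc, Snrpa and Lsm2, chosen after the values were seen, are shown beside the values, which were not tested against them. These are 3 of the 4 member genes higher in oEV-EMT at an unadjusted p of 0.05 under every setting tried. The other, Snrpn, is not shown, nor is any member that was lower, and the matching count over all genes was not made. The promoters were read from RefSeq on GRCm38.p6, from 250 bases before the transcription start to just after it. Letters matching common promoter motifs are in capitals, searched on both strands. The letters were CCGGAAG for factors of the ETS family and GCATGCGC for NRF1. For SP1 they were GGGCGG, and for NFY they were CCAAT. The search for YY1 used AAGATGGC and that for a TATA box used TATAAA. These letters do not contain each other. The windows lie at chr17:27839837-27840116 on the plus strand for Snrpc, at chr7:27196242-27196521 on the minus strand for Snrpa and at chr17:34981604-34981883 on the plus strand for Lsm2. The last 2 genes have a second RefSeq start that is not shown.
Snrpc: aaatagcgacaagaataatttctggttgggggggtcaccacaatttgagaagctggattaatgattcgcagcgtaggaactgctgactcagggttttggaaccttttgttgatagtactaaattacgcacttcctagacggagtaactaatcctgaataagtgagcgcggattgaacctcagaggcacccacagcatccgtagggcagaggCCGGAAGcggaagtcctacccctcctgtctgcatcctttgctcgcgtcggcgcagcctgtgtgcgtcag
Snrpa: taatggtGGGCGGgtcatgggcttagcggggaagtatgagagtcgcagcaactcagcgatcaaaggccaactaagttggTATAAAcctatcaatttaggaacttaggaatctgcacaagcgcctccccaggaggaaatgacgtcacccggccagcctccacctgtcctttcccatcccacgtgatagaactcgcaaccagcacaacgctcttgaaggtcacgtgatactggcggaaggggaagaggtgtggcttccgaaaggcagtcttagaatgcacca
Lsm2: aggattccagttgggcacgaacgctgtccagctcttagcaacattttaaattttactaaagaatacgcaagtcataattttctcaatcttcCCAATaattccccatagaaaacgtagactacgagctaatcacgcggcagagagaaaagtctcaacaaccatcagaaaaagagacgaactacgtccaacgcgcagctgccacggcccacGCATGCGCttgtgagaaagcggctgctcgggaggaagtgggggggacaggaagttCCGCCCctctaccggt
The capitals mark ETS letters in Snrpc, SP1 and TATA letters in Snrpa, and NFY, NRF1 and SP1 letters in Lsm2. RefSeq windows were found for 49 of the 58 members, 62 windows in all. ETS letters occurred in 35.5% of them and in 8.86% of all 32851 windows of the mouse table. SP1 letters occurred in 62.9% of member windows against 35.7% of all, NRF1 in 8.06% against 2.71%, YY1 in 6.45% against 2.75%, NFY in 38.7% against 37.4% and TATA in 8.06% against 13.6%. The median GC content was 59.5% in member windows and 52.7% in all. A match describes letters only, and windows of 1 gene can overlap each other.

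Members ranged widely in level. FPKM is scaled by transcript length, so levels can be set side by side between genes. The mean over the 6 libraries was at least 100 FPKM for 15 members and at least 10 FPKM for 41. Snrpg, a protein of the Sm ring, stood first with a mean of 739 FPKM and a range of 592 to 919.6 FPKM. It did not overlap Srsf7, an SR protein, which followed with 448 FPKM and a range of 392 to 555 FPKM. Snrpd1, also of the Sm ring, held 420.1 FPKM and overlapped Srsf7. Among the 54 tested, the lowest were Sf3a2 and Prpf19. Sf3a2 of the U2 particle held 1.47 FPKM and Prpf19, a ubiquitin ligase of the activated spliceosome, held 1.54 FPKM, and these overlapped.

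**Figure D1:**
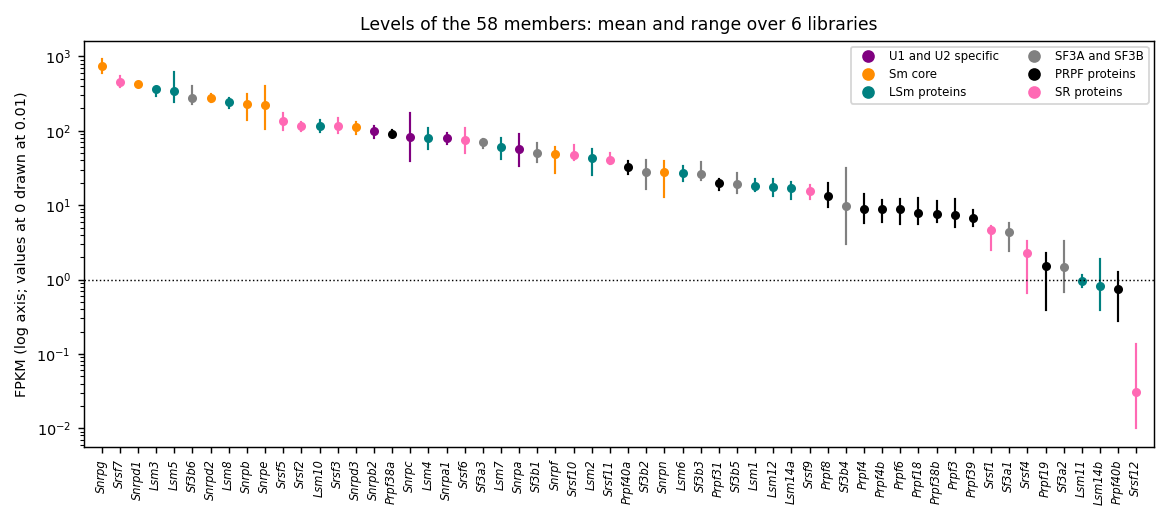
FPKM on a log axis for the 58 members, ordered by mean. Points are means over 6 libraries, bars run from the lowest to the highest library, colours mark the role class and the dotted line is at 1 FPKM. Snrpg lies at the top with a mean of 739 FPKM and Srsf12 at the bottom, with values at 0 drawn at 0.01.

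The 4 members that were not tested were Lsm11, a protein of the U7 particle that processes histone transcripts, Lsm14b, Prpf40b and Srsf12. The first held 0.783 to 1.15 FPKM over the 6 libraries, and Lsm14b held 0.391 to 1.87 FPKM. Prpf40b held 0.277 to 1.25 FPKM. Srsf12 held 0.137, 0.0302 and 0.0158 FPKM with oEV-EMT and was listed at 0 in all 3 oEV-ctrl libraries. The first 3 thus lay around the limit of 1 FPKM and Srsf12 far below it.

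No member differed between the groups past the thresholds of an adjusted p of 0.05 and an absolute log2 fold change of 1, on the scale of log2(FPKM + 1), where changes of low genes are understated. With limma and Benjamini-Hochberg adjustment over 11924 genes, 0 members and 0 genes (0%) passed. At an unadjusted p of 0.05, 7 members were higher in oEV-EMT, 13% of the 54, against 12.8% of all genes, and 3 were lower, 5.56% against 2.55% of all genes. The share higher was thus close to that of all genes. Without oEV-ctrl replicate 2, 4 were higher and 0 lower, against 8.15% and 1.69% of all genes, and without oEV-EMT replicate 3, 7 were higher and 0 lower, against 13.9% and 2.1%. Over all genes, 17 passed both thresholds without oEV-ctrl replicate 3, 4 without oEV-EMT replicate 1 and 1 without oEV-EMT replicate 3, none of them a member. The groups did not overlap, with oEV-EMT on the higher side, for 10 members, 18.5%, against 18.1% of all genes, and on the lower side for 3 members, 5.56%, against 4.34%. The median log2 fold change was 0.16 over the members and 0.17 over all genes, a difference of -0.01. Relative to that median, 26 members were on the higher and 28 on the lower side.

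These splits moved with the scaling between libraries. After median-of-ratios scaling, 5 members were higher and 6 lower at an unadjusted p of 0.05, against 6.43% and 6.39% of all genes, and after upper quartile scaling 4 were higher and 6 lower, against 4.61% and 8.08%. Scaling each library to a total of 1000000 gave 11 higher and 0 lower, against 16.1% and 1.61% of all genes, and leaving the unannotated new_gene entries out of that total gave 11 and 0, against 17.3% and 1.53%. Snrpc, Snrpa, Snrpn and Lsm2 were among the members higher at this p in the analysis as reported and in each of 17 alternatives, and 0 members were lower in every one. How many of all genes were called in every setting was not counted, so these counts have no comparison. The direction of the whole set depended on the scaling, and the values below are the deposited FPKM without further scaling.

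**Figure D2:**
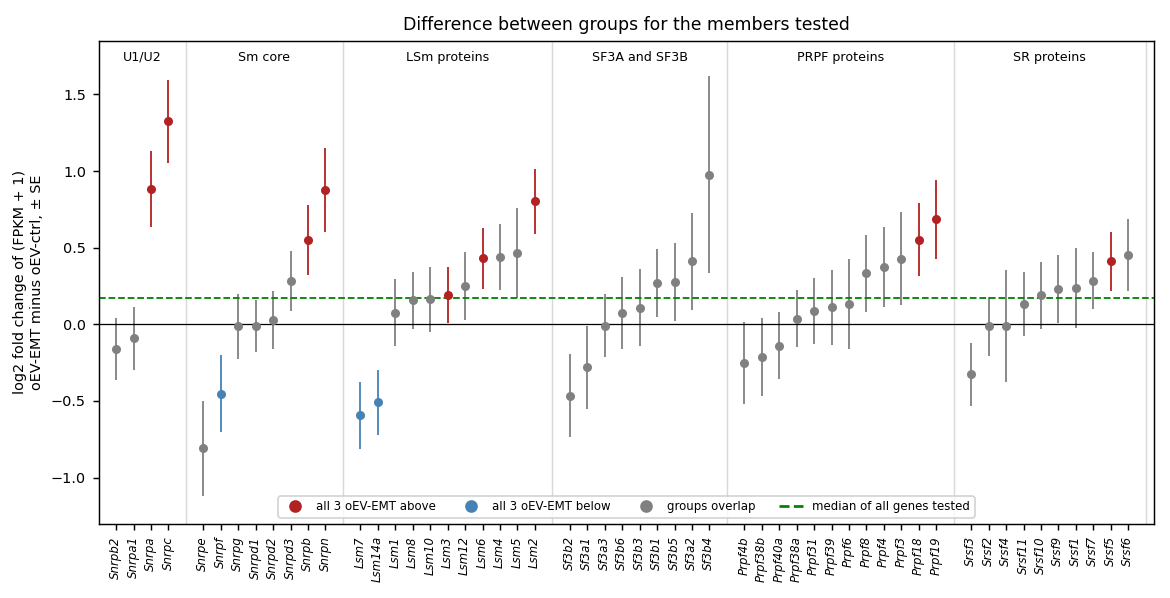
Log2 fold change of FPKM + 1, oEV-EMT minus oEV-ctrl, with the standard error from limma, for the 54 members tested, grouped by role. Red and blue mark members whose 3 oEV-EMT values all lie above (10) or below (3) the oEV-ctrl values, and the dashed line is the median of all genes, 0.17. Snrpc lies at the top at 1.32 and Snrpe at the bottom at -0.81.

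Of the 4 members specific to the U1 or U2 particle, both U1 proteins were separated between the groups. With oEV-EMT on the higher side, so were 18.1% of all genes. Snrpc encodes a U1 protein that helps the particle to bind the 5′ splice site, and lies on chromosome 17 from 27838150 to 27851968. It showed 175, 95.6 and 91.2 FPKM with oEV-EMT and 44.3, 39.8 and 53.2 FPKM with oEV-ctrl (121 ± 47.4 vs. 45.8 ± 6.84, mean ± SD, n = 3 each). The groups did not overlap, and the first oEV-EMT replicate was the highest. The log2 fold change was 1.32 (SE 0.27, adjusted p = 0.110 by limma), and 1.02 without that replicate. Snrpc was the 1 member past both thresholds when libraries were weighted by quality, with a log2 fold change of 1.10 and an adjusted p of 0.0399 by limma; this p ranged from 0.0399 to 0.360 over its alternatives.
Snrpa encodes a protein that binds a stem-loop of U1 RNA, and lies on chromosome 7 from 27187005 to 27196271. It held 91.1, 72.8 and 59.9 FPKM with oEV-EMT and 33.9, 34.4 and 52.3 FPKM with oEV-ctrl (74.6 ± 15.7 vs. 40.2 ± 10.5). These did not overlap either (log2 fold change 0.88, SE 0.25, adjusted p = 0.170 by limma). The U1 protein Snrnp70, whose symbol is outside the rule, held 7.22, 6.15 and 3.3 FPKM with oEV-EMT and 5.79, 3.79 and 7.25 FPKM with oEV-ctrl, and overlapped (log2 fold change -0.03). The proteins specific to the U2 particle did not share this direction. Snrpb2, which encodes the U2 relative of the Snrpa protein, held 95.8, 80.8 and 104 FPKM with oEV-EMT and 90.5, 116 and 108 FPKM with oEV-ctrl, and its log2 fold change was -0.16. Snrpa1, whose protein partners that of Snrpb2, had one of -0.09. The ratio of Snrpa to Snrpb2, chosen after the values were seen, was 0.951, 0.900 and 0.574 with oEV-EMT and 0.374, 0.297 and 0.484 with oEV-ctrl (p = 0.1 by exact two-sided permutation; 3 libraries against 3 allow no smaller value). Because the choice followed the values, this p is no separate test of a difference between the particles.

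Among the Sm core proteins, values pointed both ways. Snrpb encodes the SmB protein, and Snrpn encodes its relative SmN, an imprinted gene expressed from the paternal allele. Snrpn lies on chromosome 7 from 59982495 to 60140219 and held 39.0, 37.8 and 29.6 FPKM with oEV-EMT and 13.1, 18.3 and 27.4 FPKM with oEV-ctrl. The groups did not overlap (35.5 ± 5.11 vs. 19.6 ± 7.28, log2 fold change 0.87, SE 0.27, adjusted p = 0.195 by limma). Snrpb held 244, 316 and 261 FPKM with oEV-EMT and 230.4, 140.3 and 197 FPKM with oEV-ctrl. Its groups were also apart, with a log2 fold change of 0.55 (SE 0.23, adjusted p = 0.287 by limma) that was 0.35 without oEV-ctrl replicate 2. Snrpn made up 13.8%, 10.7% and 10.2% of the sum of both genes with oEV-EMT and 5.36%, 11.6% and 12.2% with oEV-ctrl, so the balance between them overlapped (exact two-sided permutation test, p = 0.7). The sum of both had a log2 fold change of 0.58 (adjusted p = 0.252 by limma).

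Snrpe encodes the SmE protein and lies on chromosome 1 from 133603871 to 133610291. It held 205, 164 and 106 FPKM with oEV-EMT and 197, 399 and 245 FPKM with oEV-ctrl (158 ± 49.9 vs. 280.3 ± 106). The groups overlapped, since the first oEV-EMT replicate lay above the first oEV-ctrl replicate (log2 fold change -0.81, SE 0.31, adjusted p = 0.263 by limma). Without oEV-ctrl replicate 2, its highest library, the log2 fold change was -0.52.
Snrpert, an intronless processed pseudogene of Snrpe on chromosome 2 that shares 55.7% of its stretches of 50 bases with Snrpe, held 31.3, 60.3 and 22.9 FPKM with oEV-EMT and 85.1, 112 and 103 FPKM with oEV-ctrl. Its groups did not overlap (log2 fold change -1.47, SE 0.32, adjusted p = 0.118 by limma). The copy held 13.2%, 26.9% and 17.8% of the sum of both genes with oEV-EMT and 30.2%, 21.9% and 29.6% with oEV-ctrl (exact two-sided permutation test, p = 0.2). With both genes summed, the values were 237, 224 and 129 FPKM against 282, 511 and 348 FPKM, which did not overlap (log2 fold change -0.96, adjusted p = 0.190 by limma). How the authors' counting divided reads between the copies is not stated.
Snrpf, which encodes SmF, the partner of SmE in assembly of the ring, held 45.0, 51.6 and 27.3 FPKM with oEV-EMT and 52.9, 52.0 and 60.5 FPKM with oEV-ctrl. All oEV-EMT values were below the others, by as little as 51.6 against 52.0 FPKM, and the log2 fold change of -0.45 (SE 0.25, adjusted p = 0.418 by limma) was -0.19 without oEV-EMT replicate 3. Summed with its pseudogene copies it was -0.20, and the groups overlapped. The remaining members of the ring, Snrpd1, Snrpd2, Snrpd3 and Snrpg, had log2 fold changes of -0.01, 0.03, 0.28 and -0.01. In each of these 4 genes the groups overlapped.

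**Figure D3:**
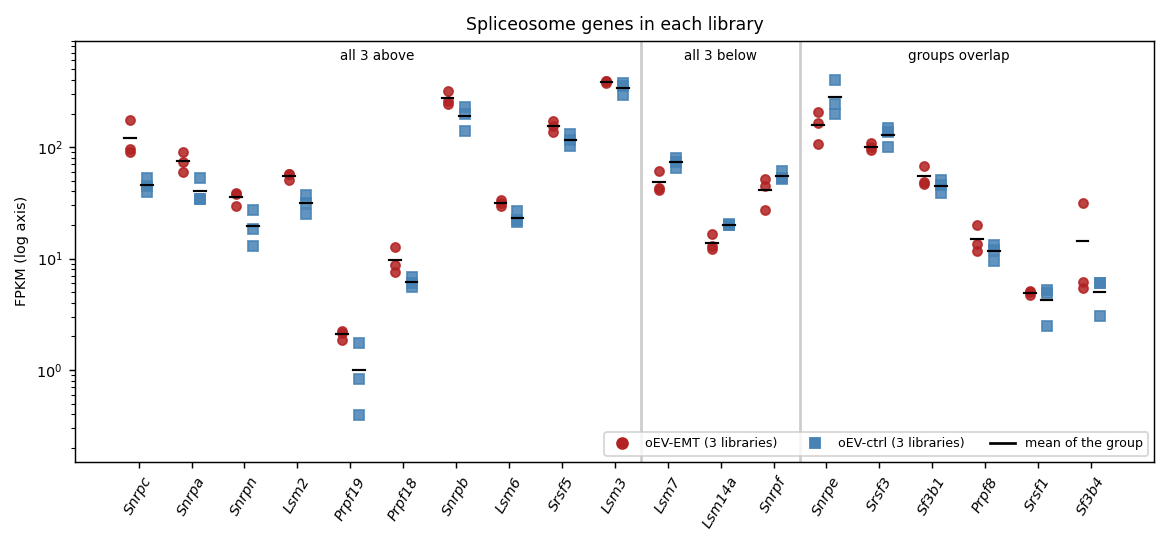
FPKM on a log axis in each of the 6 libraries for the 13 members whose groups did not overlap, then Snrpe, Srsf3, Sf3b1, Prpf8 and Srsf1, named for their role, and Sf3b4. Circles are oEV-EMT and squares oEV-ctrl libraries, and black lines are group means. Snrpc has the largest log2 fold change among them, 1.32, and 1 oEV-EMT library of Sf3b4 lies far above the rest.

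LSm2 to LSm8 form the ring on U6 RNA in the nucleus, and LSm1 takes the place of LSm8 in a cytoplasmic ring that acts in decapping and decay of mRNA. Lsm2 lies on chromosome 17 from 34981862 to 34985891 and held 50.6, 56.9 and 57.7 FPKM with oEV-EMT and 25.3, 31.6 and 37.5 FPKM with oEV-ctrl. The groups were well apart (55.0 ± 3.88 vs. 31.5 ± 6.11, log2 fold change 0.80, SE 0.21, adjusted p = 0.164 by limma). Lsm7 lies on chromosome 10 from 80852821 to 80855209 and pointed the other way, with 42.9, 61.4 and 41.5 FPKM against 74.0, 79.2 and 65.5 FPKM (log2 fold change -0.59, SE 0.22, adjusted p = 0.247 by limma). Lsm7 and Lsm2 thus encode subunits of the same ring and had log2 fold changes of opposite sign. Lsm7 held 37.1% of the FPKM summed over itself and its 2 pseudogene copies, and the sum gave a log2 fold change of -0.60 without overlap.
Lsm6 held 31.7, 29.8 and 33.6 FPKM with oEV-EMT and 26.7, 21.4 and 22.0 FPKM with oEV-ctrl (log2 fold change 0.43, SE 0.20, adjusted p = 0.339 by limma). Lsm3 held 379.7, 391 and 389 FPKM against 293, 351 and 376 FPKM. Its log2 fold change of 0.19 was close to the 0.17 of all genes and was -0.01 after median-of-ratios scaling and -0.07 after upper quartile scaling. Lsm14a is not part of a ring and belongs to cytoplasmic granules where mRNA is held untranslated. It held 16.6, 13.0 and 12.1 FPKM with oEV-EMT and 20.0, 20.4 and 19.8 FPKM with oEV-ctrl (log2 fold change -0.51, SE 0.21, adjusted p = 0.289 by limma), again without overlap. Lsm1 had a mean of 18.3 FPKM and Lsm8 one of 243 FPKM, so that Lsm1 amounted to 8.84%, 7.56% and 5.92% of Lsm8 with oEV-EMT and 8.92%, 6.54% and 7.95% with oEV-ctrl (exact two-sided permutation test, p = 0.7). The transcripts of the nuclear ring's own subunit were the more abundant in both groups.

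SF3A and SF3B are the parts of the U2 particle that hold the branch point, and none of their 9 genes was separated between the groups or passed an unadjusted p of 0.05. Of all genes, 18.1% were separated with oEV-EMT higher and 4.34% with it lower, and 12.8% and 2.55% passed this p. Sf3b1, the large scaffold that clasps the branch point helix, held 68.0, 48.6 and 47.0 FPKM with oEV-EMT and 38.6, 45.2 and 50.2 FPKM with oEV-ctrl. The values overlapped (log2 fold change 0.27, SE 0.22, adjusted p = 0.586 by limma), and the log2 fold change was 0.10 without oEV-EMT replicate 1. Sf3b4, singled out after its values were seen, held 31.5, 6.21 and 5.47 FPKM against 6.0, 3.03 and 6.05 FPKM. A single library, oEV-EMT replicate 1, carried its log2 fold change of 0.98 (SE 0.64), which was 0.23 without it. Log2 fold changes of the other members of this class ran from -0.47 for Sf3b2 to 0.41 for Sf3a2, and Sf3a2 overlaps Plekhj1 on the opposite strand.

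PRPF proteins belong mainly to the U4/U6.U5 tri-snRNP and to the complexes that activate it. Prpf8, the protein at the heart of the catalytic centre, held 20.1, 13.5 and 11.7 FPKM with oEV-EMT and 9.57, 12.0 and 13.2 FPKM with oEV-ctrl (log2 fold change 0.33, SE 0.25, adjusted p = 0.552 by limma). These values overlapped, and the log2 fold change was 0.12 without oEV-EMT replicate 1. Prpf19 held 2.14, 1.86 and 2.26 FPKM against 0.835, 0.396 and 1.75 FPKM. The groups did not overlap in this weakly expressed gene, with a log2 fold change of 0.69 (SE 0.26, adjusted p = 0.254 by limma). It was 0.46 without oEV-ctrl replicate 2, 0.95 without oEV-ctrl replicate 3 and 1.2 with a pseudocount of 0.1. Prpf18, which acts in the second step of splicing, held 12.7, 7.58 and 8.78 FPKM against 5.61, 6.01 and 6.84 FPKM (log2 fold change 0.55, SE 0.24, adjusted p = 0.309 by limma), and the log2 fold change was 0.36 without oEV-EMT replicate 1. The other 9 PRPF genes tested had log2 fold changes between -0.25 and 0.43, each with overlapping groups.

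Of the 10 SR proteins tested, Srsf5 alone was separated between the groups, with oEV-EMT on the higher side as in 18.1% of all genes. It held 154, 172 and 138 FPKM with oEV-EMT and 116, 102 and 131 FPKM with oEV-ctrl (155 ± 17.2 vs. 116 ± 14.2, log2 fold change 0.41, SE 0.19, adjusted p = 0.345 by limma). Srsf1, the founding member of the family, held 4.96, 5.14 and 4.70 FPKM with oEV-EMT and 2.48, 5.24 and 4.89 FPKM with oEV-ctrl. Its low value lay in oEV-ctrl replicate 1, without which the log2 fold change of 0.24 (SE 0.26, adjusted p = 0.697 by limma) became -0.03. Srsf3, which also serves in export of mRNA, held 108, 100.4 and 94.4 FPKM against 135, 101 and 148 FPKM (log2 fold change -0.33, SE 0.21, adjusted p = 0.476 by limma). The groups overlapped, and the log2 fold change was -0.16 when its pseudogene copies were added. The other 7 SR genes tested had log2 fold changes between -0.01 and 0.45.

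Class medians relative to all genes were 0.22 for the 4 U1 and U2 proteins, 0.04 for SR proteins, 0.02 for LSm proteins, -0.05 for PRPF proteins, -0.06 for SF3A and SF3B and -0.16 for the Sm core. The same value per library ran from 0.03 to 0.19 in oEV-EMT and from -0.33 to 0.04 in oEV-ctrl for the U1 and U2 proteins, so the groups overlapped there as in every other class. The SF3A and SF3B genes ranged from -0.24 to 0.20 within the oEV-EMT libraries alone. The Sm core held 37.2%, 35.7% and 36.3% of the FPKM of all members with oEV-EMT and 39.6%, 42.5% and 38.7% with oEV-ctrl, and without Snrpe 34.8%, 33.7% and 35.2% against 37.1%, 37.7% and 35.8%. The sum of the Sm core itself overlapped, at 2063, 1947 and 2213 FPKM against 1979, 2196 and 2073 FPKM, while that of all members did not, at 5546, 5460 and 6090 FPKM against 5001, 5171 and 5356 FPKM. The median log2 fold change was 0.16 over the members and 0.17 over all genes. A median over genes does not describe these sums, in which the most abundant members weigh most. Of the FPKM of annotated genes, the members held 0.748%, 0.714% and 0.759% with oEV-EMT. With oEV-ctrl they held 0.594%, 0.611% and 0.668%, so these shares did not overlap either. What set the shares apart was not tested.

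**Figure D4:**
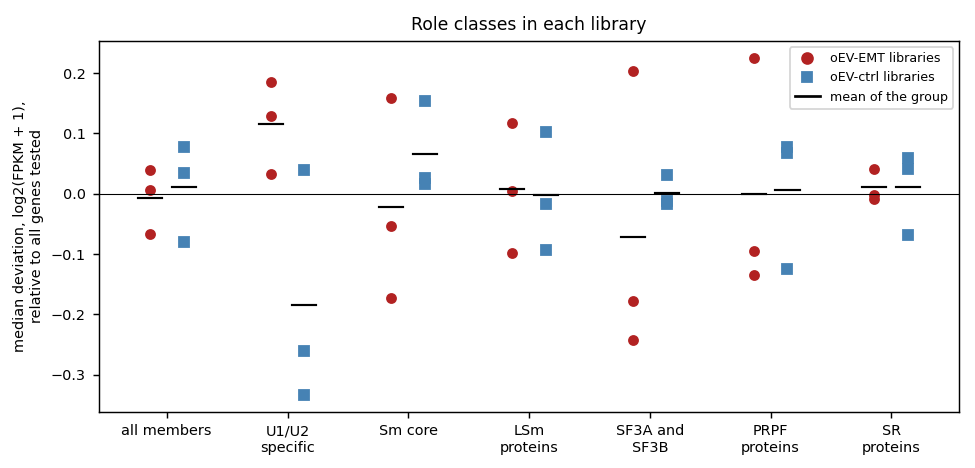
Median deviation of log2(FPKM + 1) from each gene's mean, relative to all genes tested, for all members and for each role class in each library. Circles are oEV-EMT and squares oEV-ctrl libraries, and black lines are group means. The libraries of the groups overlap in every class, and the U1 and U2 proteins run from -0.33 to 0.04 in oEV-ctrl and from 0.03 to 0.19 in oEV-EMT.

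Many of these genes have processed pseudogenes, which can draw reads from them. A pseudogene sharing at least 10% of its stretches of 50 bases, or of the member's, was found for 17 of the 54 members tested, and for 14 of these a copy had a mean of at least 1 FPKM. For 7 members the gene itself held under 80% of the summed FPKM, which is scaled by transcript length and is not a share of reads. Lsm7, Snrpf, Snrpg, Lsm5 and Srsf3 held 37.1%, 52.7%, 58.0%, 58.7% and 64.9%, while Lsm12 held 73.3% and Snrpe 76.1%. For Snrpc, 4 copies were found, and the summed values of 203, 107 and 105 FPKM against 52.1, 47.7 and 62.9 FPKM gave a log2 fold change of 1.27. This was close to the 1.32 of Snrpc alone, and the groups did not overlap in either.

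**Figure D5:**
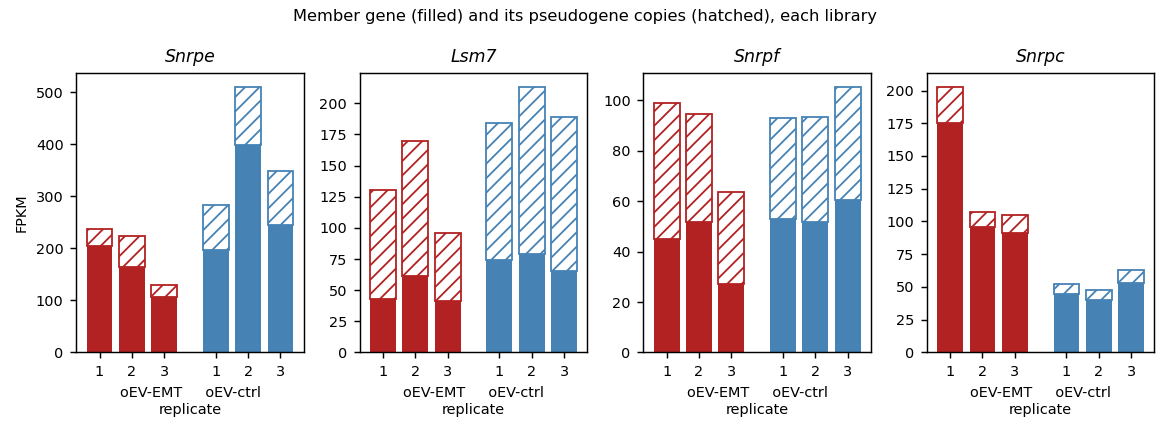
FPKM in each library for Snrpe, Lsm7, Snrpf and Snrpc (filled) and the sum of their pseudogene copies (hatched, stacked on top), oEV-EMT in red and oEV-ctrl in blue. With copies included, the groups are apart for Snrpe, whose own values overlap, and for Lsm7 and Snrpc, and they overlap for Snrpf.

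Other genes of the pathway were taken from 8 lists of 141 symbols, of which 139 were tested and 0 passed both thresholds. At an unadjusted p of 0.05, 8 were higher, 5.76% against 12.8% of all genes, and 5 lower, 3.6% against 2.55%, and their median log2 fold change was -0.09 relative to all genes. The groups were apart, with oEV-EMT higher, for 16 of the 139, 11.5% against 18.1% of all genes. They were apart with it lower for 5, 3.6% against 4.34%. In the list of snRNP assembly, 2 of 17 were higher at this p, 11.8% against 12.8% of all genes, and 0 lower. The groups were apart, with oEV-EMT higher, for 7, which is 41.2% against 18.1% of all genes, in a list chosen with earlier results known. This was the highest such share among the 8 lists. Coil, which encodes the scaffold of Cajal bodies where snRNPs mature, held 98.5, 57.4 and 46.6 FPKM with oEV-EMT and 25.1, 30.2 and 29.9 FPKM with oEV-ctrl (log2 fold change 1.15, SE 0.28, adjusted p = 0.152 by limma). Gemin7, a protein of the SMN complex that loads the Sm ring onto RNA, held 50.4, 67.0 and 51.4 FPKM against 34.9, 26.9 and 12.4 FPKM (log2 fold change 1.26, SE 0.34, adjusted p = 0.164 by limma). The other 5 were Clns1a, Gemin2, Gemin4, Gemin8 and Snupn, named after their values were seen, with log2 fold changes of 0.33 to 0.47.
Among 39 hnRNPs and splicing regulators tested, 2 were higher at an unadjusted p of 0.05, 5.13% against 12.8% of all genes, and 5 lower, 12.8% against 2.55%. Hnrnpk held 458, 239 and 272 FPKM with oEV-EMT and 176, 147 and 214 FPKM with oEV-ctrl (log2 fold change 0.80, adjusted p = 0.214 by limma). Hnrnpa0 held 31.9, 18.7 and 21.1 FPKM against 43.6, 33.8 and 32.6 FPKM (log2 fold change -0.62, adjusted p = 0.275 by limma). The others lower at this p, named after their values were seen, were Esrp1 at -0.56, Hnrnph1 at -0.53, Ptbp3 at -0.53 and Tial1 at -0.49, and all of them were without overlap. Tra2a was the other one higher, at 0.46. In this list the groups were apart with oEV-EMT lower for 12.8%, against 4.34% of all genes, and with it higher for 7.69%, against 18.1%.
In the remaining lists, genes higher at an unadjusted p of 0.05 are given with log2 fold changes, against 12.8% of all genes. They were 1 of 27 other snRNP and U2AF proteins (3.7%, Snu13, 0.48) and 1 of 12 helicases (8.33%, Ddx41, 0.62). The same held for 1 of 10 exon junction proteins (10%, Rnps1, 0.55) and 1 of 7 minor spliceosome proteins (14.3%, Zmat5, 0.56). None was found among 21 proteins of the Prpf19 complex and its partners and 6 SR protein kinases (0% each). In these lists 0 genes were lower, against 2.55% of all genes. Ppil1, Txnl4b and Srpk1 were separated without passing the unadjusted p of 0.05, with log2 fold changes of 0.99, 0.49 and 0.34. In their lists, 4.76%, 7.41% and 16.7% of genes were separated with oEV-EMT higher, against 18.1% of all genes. The value of Ppil1 was carried by oEV-ctrl replicate 2, at 14.1 FPKM against 56.6 and 52.5 FPKM in the other oEV-ctrl libraries, and was 0.37 without it.

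The libraries differed in ways that bear on all of these values. Total FPKM ran from 1293000 to 1355000 in oEV-EMT and from 1346000 to 1552000 in oEV-ctrl, and 1 unannotated entry, new_gene48, held 15.3%, 16% and 19% of it with oEV-EMT and 31.5%, 19.7% and 21.3% with oEV-ctrl. These shares did not overlap, and their part in the members' values was not tested beyond the scaling without such entries. Read totals are not known. The best-matching steps of low values put the deepest library at 2.06 times the shallowest, with 17.0% to 25.4% of low values within 0.03 of a whole fragment. The lowest of these shares was that of the deepest library, oEV-EMT replicate 1. A step count and its double can both give whole fragments, so this ratio is uncertain. Markers of trophectoderm summed to 3097 to 4716 FPKM in oEV-EMT and 3059 to 4808 FPKM in oEV-ctrl, and those of primitive endoderm to 26.7 to 40.9 against 28.0 to 33.9 FPKM. Within the latter, Gata4 was apart, at 11.3, 7.6 and 7.46 against 5.07, 4.19 and 4.17 FPKM, while Gata6, Sox17 and Pdgfra overlapped. The 4 epiblast markers Pou5f1, Sox2, Nanog and Fgf4 summed to 77.7 to 94.0 FPKM in oEV-EMT and to 29.6 to 57.4 FPKM in oEV-ctrl, and the part of this in the members' values was not tested. Nanog was the largest part of each sum, with 53.2, 46.2 and 56.1 FPKM against 13.0, 25.8 and 37.5 FPKM. Pou5f1 was also apart, at 23.8, 23.9 and 15.4 against 10.4, 6.94 and 13.7 FPKM. Fgf4 was apart too, at 13.8, 7.04 and 4.88 against 3.05, 3.41 and 3.98 FPKM. Sox2 overlapped, at 3.24, 1.14 and 1.23 FPKM against 3.17, 1.99 and 2.14 FPKM. In pooled embryos, fewer cells of a type and less RNA per cell cannot be told apart. The 5 markers of cumulus cells summed to at most 0.344 FPKM and the 3 of sperm to at most 0.843 FPKM, and of the oviduct markers Foxj1 was listed at 0 and Epcam, which trophectoderm also expresses, made up nearly all of 301 to 559.7 FPKM. Oocyte markers summed to 1.22 to 1.81 FPKM in oEV-EMT and 0.371 to 0.909 FPKM in oEV-ctrl, and their part was not tested either. Zp3 carried this, with 1.59, 1.08 and 1.61 FPKM against 0.12, 0.356 and 0.792 FPKM, and Nlrp5, Gdf9 and Bmp15 lay at 0.140 FPKM or less in every library.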

How the data were processed

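RNA of 6 pools of 10 blastocysts was sequenced. The authors selected polyadenylated RNA, mapped the reads and used StringTie for transcript assembly (mm10 is the build in the submitters' processing notes), and the aligner is not given in the sources used here. They deposited 1 table of values, described in the methods as TPM; library sums differed and exceeded 1000000, so the deposited values were analysed as FPKM. Names and coordinates were taken from GENCODE M21 (GRCm38), which matched 55141 of 55487 identifiers, and promoters from RefSeq.

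Genes that reached an FPKM of 1 in 3 or more libraries were fitted as log2(FPKM + 1) with limma 3.58.1 in R 4.3.3 (trended, robust variance), without further scaling, with Benjamini-Hochberg adjustment over all 11924 genes. The procedure was tested on simulated data. Count models were not used, as the table holds no counts. Strand-marking of the libraries is not stated. The members, classes and lists were chosen with earlier results of these data known. Members were described in full where the groups did not overlap (up to 10 in each direction) and, by role or as copies, Snrpe, Snrpert, Sf3b1, Prpf8, Srsf1, Srsf3, Snrpb and Snrpn; of each other list, up to 2 genes without overlap were given. Alternatives covered scaling, filter, pseudocount, variance model, a replicate block, transcript length, summed copies and leaving out each library; weighting libraries by quality and adding all pseudogene copies were chosen after seeing the data. Exact two-sided permutation tests served for single ratios. Python 3.11.15 and matplotlib 3.10.9 made the figures. The sequence shared by a member and its pseudogene copy is not reported here.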

Additional observations from a re-analysis of the deposited data

How the results depend on the processing

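The count of members past both thresholds stayed at 0 under every alternative except weighting by quality (1, Snrpc). The count of all genes past both was 0 as reported, 21 with a replicate block, 104 with quality weights and 0 to 17 when 1 library was left out (17 without oEV-ctrl replicate 3). Members higher at an unadjusted p of 0.05 numbered 7 as reported, against 12.8% of all genes, and 4 after upper quartile scaling, against 4.61%. They numbered 11 after either scaling to 1000000, against 16.1% and 17.3%. With 1 library left out they numbered 4 to 8 (4 without oEV-ctrl replicate 2, against 8.15%). Members lower numbered 3, against 2.55% of all genes, and 6 after median-of-ratios or upper quartile scaling, against 6.39% and 8.08%. They numbered 0 after either scaling to 1000000, against 1.61% and 1.53%. With 1 library left out they numbered 0 to 4 (0 without oEV-EMT replicate 3 and without oEV-ctrl replicate 2, against 2.1% and 1.69%). The share of all genes is not given for the other left-out libraries or the replicate block. With a filter of 0.1 FPKM in 1 library, the members' relative median was 0.0714 and that of SR proteins 0.116; the latter ran from -0.0433 to 0.0541 with 1 library left out. With this filter 23569 genes were tested, and their median log2 fold change was 0.0726, against 0.172 over the 11924 as reported. A gene's own log2 fold change does not change with the filter, so the reference of the relative medians was the lower one. With it, 58 members were tested instead of 54. The cause of the values with 1 library left out was not tested. Of 333 log2 fold changes of 19 named members under alternatives, 329 kept their direction and side of the thresholds, 3 reversed (Lsm3 at -0.00615 and -0.0742 after median-of-ratios and upper quartile scaling, Srsf1 at -0.0322 without oEV-ctrl replicate 1, the lowest of its values with 1 library left out, the highest being 0.390) and 1 passed the thresholds (Snrpc). Changes of filter or variance model and the replicate block leave a log2 fold change as it was, so direction was kept there by design. As no member passed both thresholds as reported, the side could change only by passing them. Whether same-numbered libraries were paired is not stated, and 3 libraries per group cannot decide it. After each group was centred, same-numbered libraries correlated at 0.119, -0.0442 and 0.0388 and differently numbered ones at -0.135 to 0.122. With the replicate block, 6 members were higher and 2 lower. FPKM keep no read totals, so counting error could not be given apart from the spread between libraries.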

Other observations

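The 19 tested members with ETS letters in a promoter window had log2 fold changes with a median of -0.06, set against the median of all genes (range -0.98 to 1.15), and the 26 with a window but without these letters had 0.0043 (range -0.76 to 0.71). Across the 54 members tested, the log2 fold change and the summed exon length had a Spearman rho of -0.0681, and across the 11631 genes with a length one of -0.0810; genes share their libraries and are not independent. The 58 members together held 0.748%, 0.714% and 0.759% of the FPKM of annotated genes with oEV-EMT and 0.594%, 0.611% and 0.668% with oEV-ctrl. These shares did not overlap. Relative to all genes tested, the median of the members tested overlapped between the groups. It ran from -0.067 to 0.039 in the oEV-EMT libraries and from -0.080 to 0.078 in the oEV-ctrl libraries.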
